A study of Mus musculus with 3 samples.

Results

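The cells described here were capillary endothelial cells of mouse gastrocnemius, a calf muscle, in which transcripts of both Atf3 and Atf4 were found. They were chosen from single-cell UMI counts, where a UMI is a molecular tag that counts 1 captured transcript once. A barcode was kept with at least 1000 UMIs, at least 300 genes and at most 10% mitochondrial UMIs. It was called capillary with at least 10 UMIs summed over Gpihbp1, Rgcc, Cd36, Fabp4, Car4, Cd300lg and Timp4, none over 7 artery genes and at most 1 over 6 vein genes. Of 11715 barcodes, 8105 passed the first limits and 3386 were called capillary. In 395 of these at least 1 UMI of Atf3 and at least 1 of Atf4 were counted, and they are called cells with both. The other capillary cells had Atf3 alone (457), Atf4 alone (845) or neither (1689).

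ATF3 and ATF4 are leucine zipper transcription factors of the ATF/CREB family. ATF4 protein is made mainly when phosphorylation of eIF2α slows general translation, as in amino acid shortage or stress of the endoplasmic reticulum, and it then raises genes of amino acid synthesis, uptake and tRNA charging, and Atf3 itself. Atf3 is also an early-response gene, one whose transcription rises within minutes of a stimulus without new protein, like the AP-1 genes Fos and Jun, so its mRNA can come from either route. On GRCm38 (GENCODE annotation) Atf3 lies on the minus strand of chromosome 1 at 191170296-191218039 and Atf4 on the plus strand of chromosome 15 at 80255184-80257541.

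The cells came from C57BL/6N mice and were sorted as viable CD31+, CD45- cells. There were 3 libraries, with 1 in each group. Mice of the running group were housed singly with a wheel for 14 days of voluntary running, and those of the sedentary group singly in a cage with no wheel. The third library is labelled as untreated, and its housing, like the age, sex and number of animals behind each library, is not given in the sources used here. The libraries had between 5625068 and 8002866 UMIs. Between 20 and 32 barcodes were shared by any 2 libraries, and no member's barcode was. A difference between libraries has no replicate check, and intervals below cover counting error only.

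The members carried endothelial transcripts, and some also held UMIs of other cell types' markers. In the depth-matched members described below, Cdh5, which encodes VE-cadherin, was found in 92.0%, 87.5% and 90.1% of those from the untreated, sedentary and running libraries, and Pecam1, which encodes CD31, in 83.9%, 78.1% and 77.5%. Ptprc, the pan-leukocyte gene that encodes CD45, and Prox1, a lymphatic regulator, were found in 0 of 112, 0 of 64 and 0 of 142 members of the untreated, sedentary and running libraries, which allows shares of cells with a UMI of up to 2.68%, 4.69% and 2.11% and sets no limit on cells that express these genes. Pdgfrb, a pericyte receptor gene, was found in 0.704% of running members and in none of the others. At least 1 UMI of a mural marker, mostly of Rgs5, was found in 28 of 112 untreated, 15 of 64 sedentary and 47 of 142 running members, against 29, 9 and 39 of as many cells with neither. For lymphatic markers the numbers were 13, 5 and 36 members against 10, 12 and 29 cells with neither, and for erythrocyte markers 4, 49 and 91 against 8, 46 and 101. The capillary label rested on sums well above the limit: the median sum over the 7 capillary genes was 34.5 UMIs in untreated, 25.5 in sedentary and 28 in running members. Just inside the limit, with 10 to 12 such UMIs, were 4, 1 and 7 members, and just outside, with 7 to 9, were 1, 7 and 2 barcodes. A single artery UMI kept out 29, 32 and 61 barcodes that met all other terms.

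Members made up a larger share of capillary cells in the running library than in either other library. They were 130 of 1494 capillary cells in the untreated library (8.70%, exact Clopper-Pearson 95% interval 7.32 to 10.2%), 82 of 862 in the sedentary (9.51%, 7.64 to 11.7%) and 183 of 1030 among running ones (17.8%, 15.5 to 20.2%). The running share was 8.25 points above the sedentary one (5.11 to 11.4), while the sedentary share lay 0.811 points above the untreated (-1.62 to 3.37). The share of cells with Atf3 alone was likewise highest in the running library, at 17.1% against 12.1% and 11.8% in the sedentary and untreated ones. Cells with Atf4 alone made up 23.9% in the running, 24.5% in the sedentary and 25.97% in the untreated library. Counted with or without Atf3, cells with Atf4 were again most frequent in the running library, at 41.7% against 34.0% and 34.7%, a difference to the sedentary of 7.66 points (3.20 to 12.1). Outside the capillary rule the share of kept barcodes with both was also highest in the running library, at 20.7% against 12.8% and 15.4% in the sedentary and untreated ones. In barcodes with over 50% erythrocyte UMIs, both transcripts were found in 0 of 6 untreated, 0 of 15 sedentary and 1 of 9 running barcodes, so few that shares of up to 50% and 20% are allowed by the first 2 counts. Taken singly, Atf3 was counted in 0%, 13.3% and 55.6% of these untreated, sedentary and running barcodes, and Atf4 in 0%, 0% and 11.1%. The median depths of these barcodes were 978, 2897 and 4225 UMIs, against 1565, 1584 and 1661 in capillary cells. The part of free RNA in members with single UMIs was not tested.

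Depth sets how often a second transcript is seen, so every capillary cell was also thinned to 1000 UMIs and classified again. The shares of cells with both then fell to 3.68%, 4.87% and 8.25% in the untreated, sedentary and running libraries. The running share remained the highest, 3.38 points above the sedentary (1.07 to 5.66). The median depth of members was 1916, 1641 and 1907 UMIs in the same order, against 1465, 1508 and 1506 in cells with neither.

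**Figure D1:**
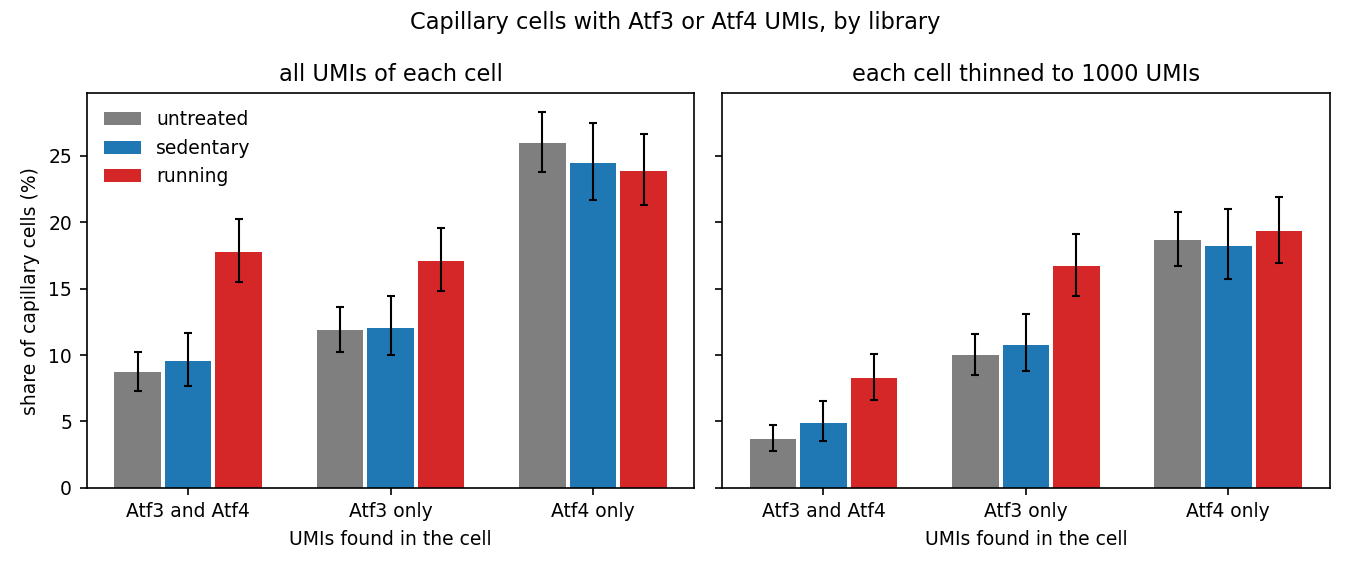
Share of capillary cells (%) with UMIs of both genes, of Atf3 only and of Atf4 only, by library, from all UMIs (left) and after thinning each cell to 1000 UMIs (right). Bars are shares and whiskers exact 95% binomial intervals. The running bar for both genes stands at 17.8% on the left and 8.25% on the right, above the other libraries on both.

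The 2 transcripts were found together somewhat more often than their separate frequencies gave among cells of like depth. Within bins of total UMIs, 130 untreated, 82 sedentary and 183 running cells with both stood against 121, 66.2 and 157 from the product of the separate shares. The Mantel-Haenszel odds ratio over these bins came to 1.20 (untreated), 1.63 (sedentary) and 1.61 (running). These ratios are a description, since cells of 1 library are not replicates. No interval was computed for them, so their counting error was not assessed. The untreated library had the smallest excess.

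Membership mostly rested on few molecules. Of the 395 members, 225 had a single Atf3 UMI, 83 had 2 and 87 had 3 or more, with 14 the most in any cell. For Atf4 the numbers were 257, 96 and 42, with at most 5. Both genes stood at a single UMI in 151 members (38.2%), and 64 had at least 2 UMIs of each. A cell in which no UMI of a gene was captured may still express it, so the classes are classes of detected transcripts.

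To compare classes at like depth, equal numbers of cells of each class were drawn within each library and UMI bin, which kept 318 members (112 untreated, 64 sedentary and 142 running) and left out 77. UMIs were summed per library and class, and the 12 sums were compared with edgeR's quasi-likelihood test with the library as a block. Levels below are CPM, the UMIs of a gene scaled to a common total for each sum. Adjusted p-values are Benjamini-Hochberg values over all genes of that fit. Fold changes are log2 ± the SE implied by the test statistic. The error of the test joins counting error with a variation estimated over the 12 sums, in part from other genes. The libraries belong to different groups, so this error holds no spread between replicates of a group. Atf3, Atf4 and the other genes of the rule are left out of counts. The capillary genes Fabp4 and Gpihbp1, a fatty acid carrier and the protein that holds lipoprotein lipase on capillaries, were used by the rule: they differed between cells with both and with neither by -0.55 ± 0.06 and -0.53 ± 0.09, while Rgcc stood at -0.09 ± 0.09 and Cd36 at 0.05 ± 0.08.

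Between cells with both Atf3 and Atf4 and cells with neither, 137 of 7719 genes tested passed an adjusted p of 0.05 (1.77%): 84 were higher (1.09%) and 53 lower (0.687%). The early-response, Krüppel-like, SOCS and STAT, and MAPK and NF-κB feedback lists held 32 of the 84 higher genes, out of 75 genes tested on them, and none of the lower ones. The other 52 higher genes were on none of these lists. The lists were written with earlier results of these data known, so these counts are no separate check. The same sign in all 3 libraries was seen for 134 of the 137 (1.74% of all genes tested), against 31.6% of all genes tested with or without the threshold. The 137 were called from these same libraries, which favours a shared sign, so this is no separate check. Without the running library 56 genes passed, without the sedentary 93 and without the untreated 109. In each of these 3 fits 43 of the 137 passed, 35 of them higher. With a second random draw of depth-matched cells 122 passed, 90 of them among the 137, and 14 of the 24 genes named here for high or low fold changes no longer did.

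Socs3, whose product blocks JAK-STAT3 signalling, showed the class difference in every library. Its level was 798 CPM in untreated, 1058 in sedentary and 989 in running members, against 306, 224 and 401 in cells with neither. The lowest member value lay above the highest value of cells with neither, and the fold change was 1.53 ± 0.13 (adjusted p = 7.24e-21). Socs1, a related inhibitor of cytokine receptors, rose by 1.38 ± 0.28 (adjusted p = 0.000256), but at 67.6, 141 and 216 CPM in members and 40.5, 53.8 and 71.2 in cells with neither its ranges overlapped. Without the running library the adjusted p of Socs1 was 0.45.

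AP-1 is the dimer of FOS and JUN family proteins with which ATF3 can pair. Of 10 AP-1 subunit genes tested, 6 were higher in cells with both (Fos, Fosb, Fosl2, Jun, Junb and Jund) and none was lower, with a list median of 0.98 against 0.0045 for all genes. Jund stood at 2411, 4162 and 4332 CPM in members (untreated, sedentary, running) and at 1364, 1569 and 1743 in cells with neither, so the classes did not overlap (fold change 1.21 ± 0.08, adjusted p = 2.43e-27). Fos stood at 4020, 2425 and 3109 CPM against 2409, 1040 and 1492 (0.99 ± 0.09, adjusted p = 9.19e-17). For Fos the members of the sedentary library barely exceeded the untreated cells with neither, while within each library members were higher. Jun differed by 0.99 ± 0.10, Junb by 1.07 ± 0.12 and Fosl2, at far fewer UMIs, by 1.57 ± 0.32.

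Other rapid-response genes followed. Of 24 tested, 13 were higher and none lower, with a median of 0.82. Egr1, a zinc finger factor switched on by MAPK and SRF signalling, stood at 2087, 1816 and 2603 CPM in members (untreated, sedentary, running) and at 1418, 789 and 1072 in cells with neither (1.01 ± 0.10, adjusted p = 6.53e-16), with no overlap. Zfp36, whose product destabilises AU-rich mRNAs, differed by 0.99 ± 0.11, and the antiproliferative Btg2 by 0.97 ± 0.10. Gadd45g, a growth arrest gene, differed by 1.29 ± 0.18, and Nr4a2, an orphan nuclear receptor gene counted in only 112 UMIs over the sums, by 1.71 ± 0.44 (adjusted p = 0.012). Without the running library the adjusted p of Nr4a2 was 0.52.

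Genes of the neighbouring feedback lists rose as well. Of 8 Krüppel-like factors tested, 4 were higher: Klf2, Klf4, Klf6 and Klf9. Klf4, a factor of quiescent, flow-exposed endothelium, stood at 2145, 2187 and 1822 CPM in members (untreated, sedentary, running) against 1153, 708 and 828 (1.18 ± 0.10, adjusted p = 4.35e-20). Cdkn1a, which encodes the cell cycle inhibitor p21, stood at 1167, 1516 and 1566 CPM against 626, 574 and 712 (1.14 ± 0.11, adjusted p = 6.92e-18). Neither gene's classes overlapped. Of 13 NF-κB feedback genes tested 3 were higher, Nfkbiz with 1.47 ± 0.22, Nfkbia with 0.71 ± 0.12 and Irf1 with 0.67 ± 0.18, and of 10 MAPK feedback genes 3 were higher, Errfi1, Spry1 and Dusp1. Irf1 had an adjusted p of 0.53 without the running library, Dusp1 one of 0.059, and Errfi1, with 93 UMIs in all, one of 0.53, 0.15 or 0.072 without the running, sedentary or untreated library.

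The 15 genes with the highest fold changes also held genes of no list. Rnd1, which encodes a GTP-binding protein without GTPase activity, stood at 428, 220 and 249 CPM in members (untreated, sedentary, running) against 117, 35.9 and 109 (1.68 ± 0.21, adjusted p = 1.38e-10). Tob1, an antiproliferative gene related to Btg2, differed by 1.27 ± 0.24 and Tmem252 by 1.22 ± 0.29. Phlda1, with the highest fold change (2.00 ± 0.59, adjusted p = 0.0465), was counted in 70 UMIs over all 12 sums and passed in none of the 3 fits without a library (adjusted p between 0.073 and 0.40). Chka, Cstf3, Sik1 and Nasp, with fold changes between 1.38 and 1.71 and 89 to 117 UMIs each, likewise lost the call without the running library (adjusted p between 0.088 and 0.76). Tmem252 had an adjusted p of 0.47 without the untreated library.

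**Figure D2:**
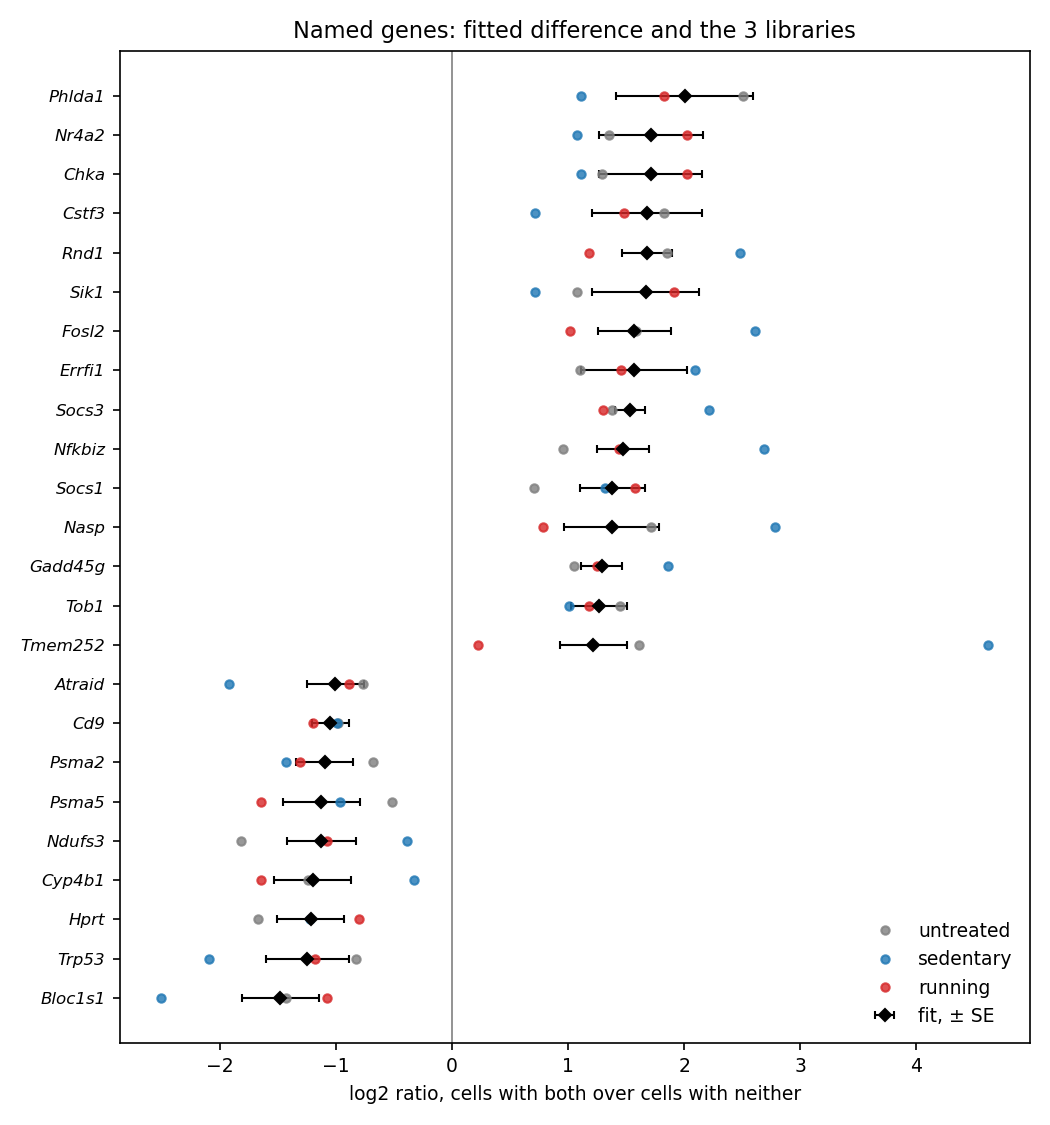
Log2 ratio of cells with both genes to cells with neither for 24 named genes, 15 higher and 9 lower. Diamonds are the fitted value with its SE, and circles are the 3 libraries; all libraries of a named gene lie on the same side of 0 by the naming rule, and the sedentary library, with the fewest cells, has the widest spread.

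The early response could be followed cell by cell. In depth-matched members the 41 AP-1 and rapid-response genes took a median of 2.66% of a cell's UMIs among untreated, 2.62% among sedentary and 3.07% among running ones. Cells with Atf3 alone had 2.55%, 2.65% and 2.91%, cells with Atf4 alone 1.89%, 1.18% and 2.03%, and cells with neither 1.34%, 0.563% and 0.904%. The classes overlapped as distributions: the highest cells with neither reached 5.27%, 5.05% and 5.59%, and the lowest members 0.360%, 0.360% and 0.371%. Within the members, those of the running library with a single Atf3 UMI had 25993 CPM of these genes, those with 2 had 30957 and those with 3 or more had 33015. The sedentary members did not follow this order, at 26066, 22986 and 28858 CPM, nor did the untreated, at 25032, 28956 and 27825.

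Targets of ATF4 did not show the pattern. Of 25 genes listed as ATF4 targets 14 could be tested, none passed in the comparison of cells with both and with neither, and their median fold change was 0.16. The list took a median of 0.131%, 0.123% and 0.0942% of UMIs in untreated, sedentary and running members, against 0.139%, 0.0801% and 0.0908% in cells with neither. Asns, the asparagine synthetase gene, was counted in 3, 3 and 4 UMIs in members and 3, 0 and 5 in cells with neither. Trib3, a pseudokinase gene that dampens the pathway, had 3, 3 and 9 UMIs against 10, 4 and 6, so neither gene could separate classes at this depth. Cebpb, a leucine zipper factor gene, had the largest difference of the list, 1.56 ± 0.47 with an adjusted p of 0.057.

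The neighbouring lists gave like counts. None of 7 amino acid transporter genes tested passed (median 0.18), none of 18 tRNA synthetase genes (median 0.09) and none of 17 genes of endoplasmic reticulum stress (median -0.15). Slc38a2, a neutral amino acid transporter gene, stood closest with 0.56 ± 0.18 and an adjusted p of 0.083. Of 13 genes upstream of ATF4, which act in eIF2 phosphorylation and exchange, Ppp1r15a passed. Its product, GADD34, returns eIF2α to the unphosphorylated state. Ppp1r15a stood at 302, 441 and 294 CPM in members (untreated, sedentary, running) against 176, 117 and 169 in cells with neither, without overlap (1.06 ± 0.20, adjusted p = 4.62e-05).

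**Figure D3:**
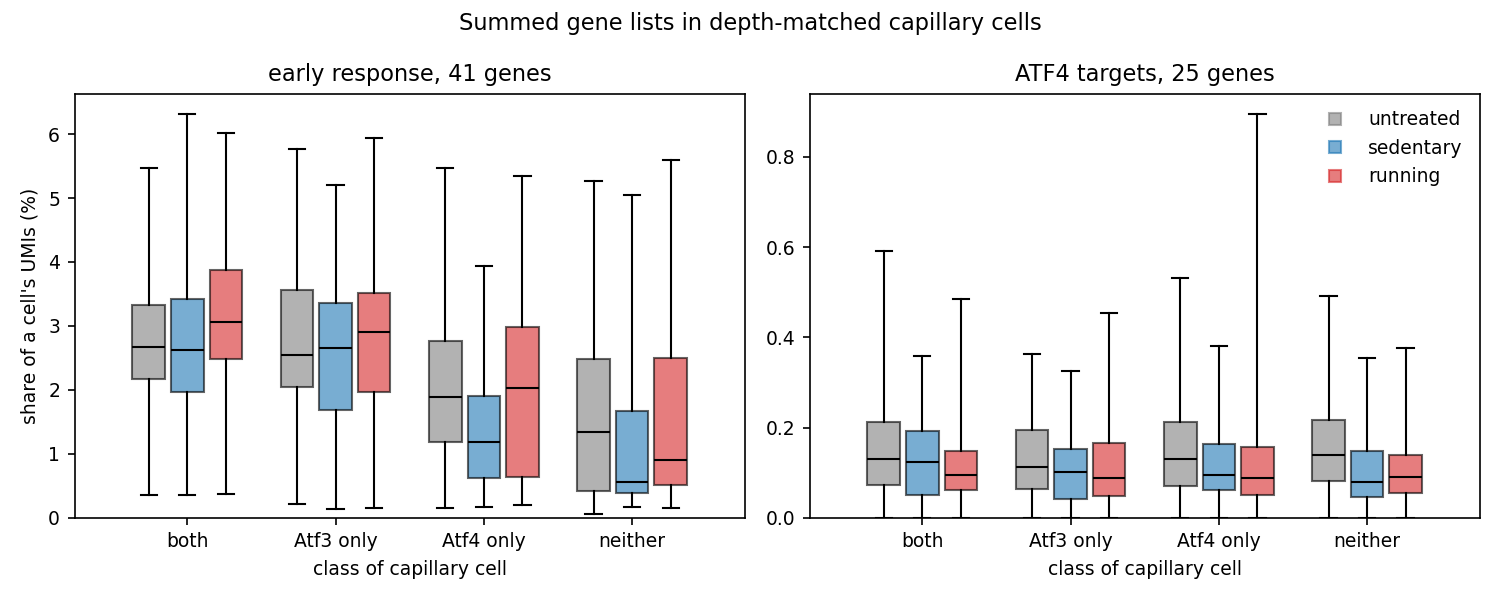
Share of a cell's UMIs (%) from 41 early-response genes (left) and 25 ATF4 targets (right) in depth-matched cells of each class. Boxes span the lower to the upper quartile with the median, and whiskers reach the lowest and highest cell; on the left the median falls from 3.07% in running members to 0.904% in running cells with neither, and on the right the boxes of all classes overlap.

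The promoter windows of these genes were searched for binding motifs, on both strands of the 250 bases before each RefSeq start. Windows were found for 64 of the 84 higher genes and 44 of the 53 lower genes. The full cAMP response element, TGACGTCA, which CREB and ATF dimers bind, was in 5 of 80 windows of higher genes (6.25%), in 2.62% of windows of all tested genes, in 1.55% of all windows and in none of 51 windows of lower genes. The AP-1 motif TGANTCA was in 10.0% of windows of higher genes and 13.7% of lower genes, against 4.13% of all tested genes and 6.75% of all windows. The ATF4 composite motif TGATGNAA, read by ATF4 with a C/EBP partner, was in 1.25%, 3.92% and 1.78% of windows of higher, lower and all tested genes, and in 3.45% of all windows. A match is a run of letters and no proof of a site. The sequences are, 5′ to 3′ on the gene's strand of GRCm38.p6 from RefSeq, those of the 5 higher genes with the full element, and of Gadd45g and Atf3 with the composite motif, which lies there on the opposite strand; capitals mark the match.
Ppp1r15a, chr7:45526269-45526306, minus strand: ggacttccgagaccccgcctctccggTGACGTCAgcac
Btg2, chr1:134079288-134079347, minus strand: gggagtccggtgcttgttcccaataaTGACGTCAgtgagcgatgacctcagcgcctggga
Dusp1, chr17:26508582-26508641, minus strand: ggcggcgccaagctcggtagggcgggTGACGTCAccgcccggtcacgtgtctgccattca
Errfi1, chr4:150854993-150855052, plus strand: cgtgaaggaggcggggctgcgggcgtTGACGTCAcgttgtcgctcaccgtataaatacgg
Ccnl1, chr3:65958250-65958293, minus strand: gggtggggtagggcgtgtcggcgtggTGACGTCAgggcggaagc
Gadd45g, chr13:51846548-51846607, plus strand: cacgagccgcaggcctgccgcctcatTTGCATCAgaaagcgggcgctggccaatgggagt
Atf3, chr1:191183334-191183483, minus strand: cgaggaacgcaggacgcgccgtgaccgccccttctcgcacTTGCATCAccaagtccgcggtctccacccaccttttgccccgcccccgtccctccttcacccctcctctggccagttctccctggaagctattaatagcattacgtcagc
In Ppp1r15a and Ccnl1 the element began 12 and 18 bases before the start, in Errfi1 51, and in Dusp1 and Btg2 143 and 166 bases before it. The composite match of Atf3 began 110 bases before the RefSeq start used here. That window lies inside the span given above for Atf3, not at its outer 5′ end.

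Ly6c1 and Cd9, which encode surface proteins, were lower in cells with both. Ly6c1, a surface antigen of microvascular endothelium, stood at 1474, 2028 and 1510 CPM in members (untreated, sedentary, running) against 1977, 3765 and 2245 in cells with neither (-0.60 ± 0.08, adjusted p = 1.39e-08). Its ranges overlapped between libraries while each library's members were lower. Cd9, a tetraspanin gene, stood at 248, 300 and 193 CPM against 491, 601 and 446, without overlap (-1.05 ± 0.16, adjusted p = 1.74e-07). Of 25 endothelial identity genes, 3 were lower (Ly6c1, Ly6a and the tight junction gene Cldn5) and none was higher, with a median of -0.014. The adjusted p without the running library was 0.23 for Ly6a and 0.63 for Cldn5. Cldn5 also lost the call with a second random draw of cells (0.072) and without cells that held 3 or more UMIs of other cell types, where its fold change of -0.39 became -0.068 (adjusted p = 0.95).

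Bloc1s1, an adaptor gene of lysosome positioning, had the lowest fold change of the named genes. Its counts were 6, 3 and 15 UMIs in untreated, sedentary and running members against 17, 19 and 32 in cells with neither (-1.48 ± 0.33, adjusted p = 0.00139, and 0.093 without the sedentary library). Other genes with low fold changes, Trp53, Hprt, Cyp4b1, Ndufs3, Psma5, Psma2 and Atraid, had values of -1.24 to -1.0. Each of these 7 lost the call in at least 1 of the 3 fits without a library, with adjusted p up to 0.69. Of 12 MHC class I and peptide loading genes, B2m alone was lower (-0.41 ± 0.09, adjusted p = 0.000406, 0.12 without the running or the sedentary library), and of 52 nuclear respiratory chain genes on a list that does not hold Ndufs3, a complex I subunit gene, Uqcrb alone (-0.71 ± 0.15, adjusted p = 0.00096, and 0.20 and 0.099 without the running and the sedentary library).

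Cells with both were higher in early-response genes than cells with Atf4 alone, while no gene passed against cells with Atf3 alone. In the first comparison 70 of 7719 genes passed (0.907%), 45 higher (0.583%) and 25 lower (0.324%). In the second none passed in edgeR (0%) or DESeq2, while 356 had an unadjusted p under 0.05 (4.61%). The number of passing genes does not compare the 2 differences gene by gene. Socs3, for example, stood at 464, 416 and 506 CPM, in the same order, in cells with Atf4 alone and at 817, 1067 and 924 in cells with Atf3 alone. The fold change of cells with both was 1.01 ± 0.12 against the former (adjusted p = 1.27e-10) and 0.03 ± 0.11 against the latter (adjusted p = 0.99).

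The early-response list followed suit, with 13 of 34 tested genes higher than in cells with Atf4 alone (median 0.61) and none past the threshold against Atf3 alone (median 0.06). Jund was 0.78 ± 0.08 above cells with Atf4 alone and 0.20 ± 0.08 above cells with Atf3 alone (adjusted p = 0.95), and Klf4 0.79 ± 0.10 and 0.32 ± 0.09 (adjusted p = 0.52). Apold1, an endothelial early-response gene, rose against Atf4 alone by 1.11 ± 0.15 (adjusted p = 4.86e-09) at 383, 652 and 829 CPM in members (untreated, sedentary, running) against 228, 275 and 355. It stood 0.01 ± 0.13 from cells with Atf3 alone. Nfkbiz, Rnd1, Socs1, Tmem252, Csrnp1 and Casp4 were also among the 8 highest against Atf4 alone, with fold changes between 1.16 and 1.74, and Casp4 and Csrnp1 passed in none of the 3 fits without a library. The adjusted p of Socs1 was 0.55 without the running library, and that of Tmem252 0.067 without the untreated one.

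Ddit3, which encodes CHOP, a joint target of ATF4 and partner of leucine zipper factors, was the only ATF4 target that passed in this comparison. It was counted in 10, 10 and 36 UMIs in untreated, sedentary and running members against 7, 2 and 13 in cells with Atf4 alone (1.35 ± 0.35, adjusted p = 0.0238). The running library held most of these UMIs, and without it the adjusted p was 0.73, and 0.16 without the sedentary library. With a second random draw of matched cells it was 0.48. Against cells with neither the difference was 0.64 ± 0.32 (adjusted p = 0.46).

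Among genes lower in cells with both than with Atf4 alone, Ccl21a, a lymphatic chemokine gene with near-identical copies among which reads may be split, had a fold change of -2.19 ± 0.32. Of its 105 UMIs in running cells with Atf4 alone, 82 were in 1 barcode. That class also held 1 barcode with 34 of 36 UMIs of Lyz2, a myeloid gene, and 27 of the 46 UMIs of Cebpb were in 1 barcode as well. Bloc1s1 (-1.66 ± 0.32), Hint2 (-1.35 ± 0.37), Lgals1 (-0.90 ± 0.24) and Cd9 (-0.73 ± 0.17) were the others of the 5 lowest. Without the running library the adjusted p was 0.28 for Cd9, 0.65 for Lgals1 and 0.47 for Hint2, and for Bloc1s1 it was 0.065 without the sedentary library.

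The contrast of cells with both minus the sum of the 2 single classes, on the log scale, asked whether the joint class departed from adding the separate differences. One gene of 7719 passed, Ifi27l2a, an interferon-stimulated gene (0.013%, with 341 genes, 4.42%, at an unadjusted p under 0.05 and none passing in DESeq2). Of 34 early-response genes tested, none passed and 6 had a contrast above 0, with a median of -0.26. Over all genes tested, 3847 of 7719 lay above 0, with a median of -0.0016. Ifi27l2a stood at 176, 168 and 130 CPM in members (untreated, sedentary, running), at 284, 350 and 220 with Atf3 alone, at 241, 186 and 111 with Atf4 alone and at 108, 135 and 86.2 with neither. The contrast was -1.53 ± 0.31 (adjusted p = 0.00917), and 0.092, 0.082 and 0.84 without the running, sedentary and untreated library. Cells with Atf3 alone differed from cells with neither in 102 genes (1.32%), and cells with Atf4 alone in 4 (0.0518%), namely Ccl21a, Lyz2, Cebpb and Jund, all higher.

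**Figure D4:**
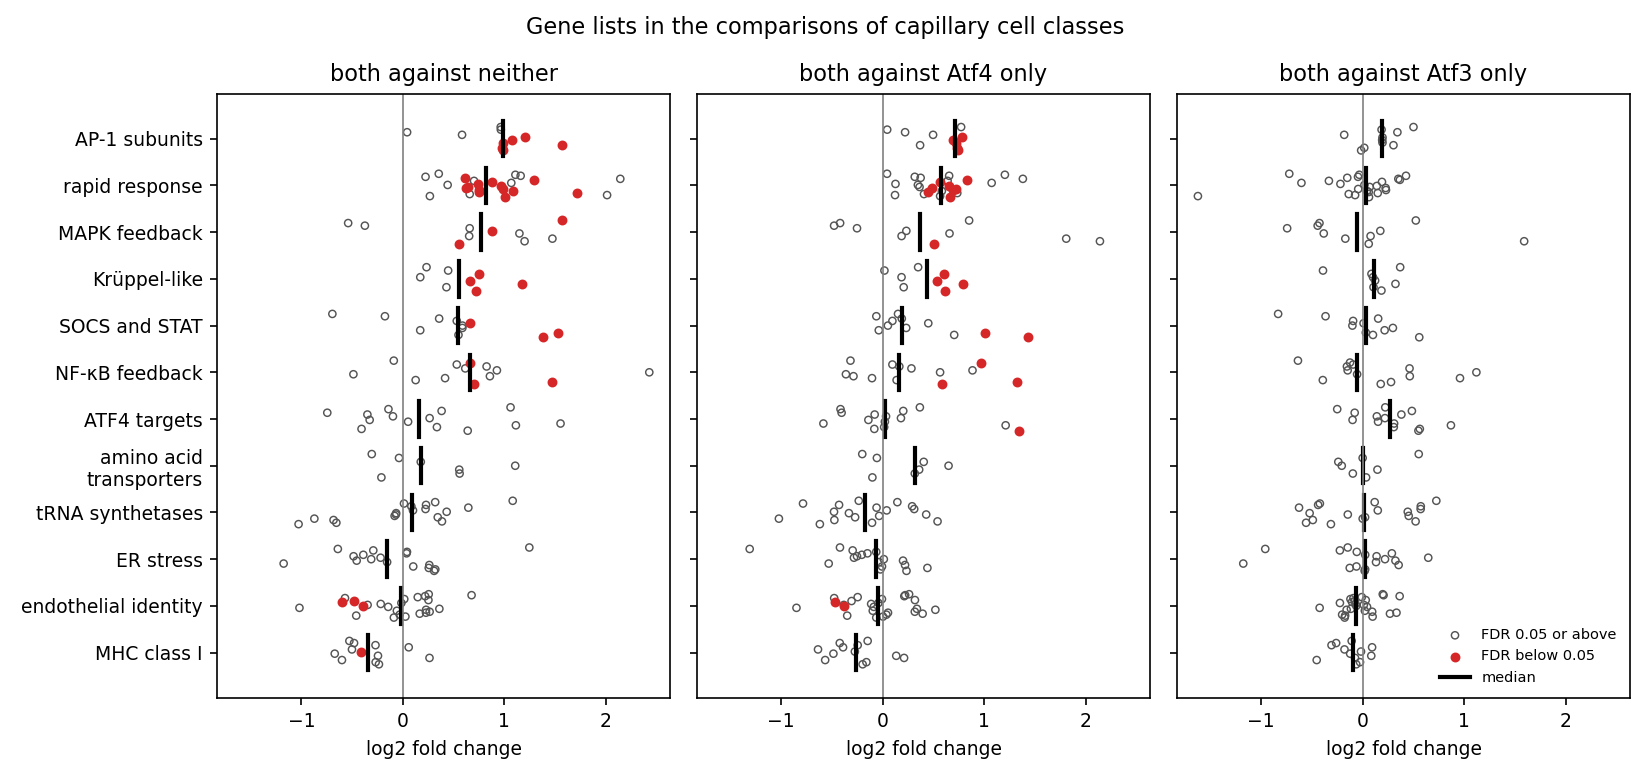
Log2 fold change of each tested gene of 12 lists when cells with both genes are compared with cells with neither, with Atf4 only and with Atf3 only. Filled points passed an adjusted p of 0.05 and bars are list medians; the AP-1 median is 0.98 in the first panel and 0.19 in the last, where no gene passed.

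Markers of other cell types moved with some of these classes. Mural markers summed to 472 CPM in running members against 214 in running cells with neither, to 185 against 89.6 in the sedentary and to 230 against 234 in the untreated library, with 3, 7 and 6 of the 10 markers at 0 in running, sedentary and untreated members. Most of these UMIs were of Rgs5, a pericyte gene also found in some endothelium, which rose in cells with both (0.92 ± 0.21, adjusted p = 0.00187). Of 106 Rgs5 UMIs in running members 25 were in 1 cell, and the adjusted p was 0.85 without cells that held 3 or more UMIs of other cell types and 0.71 without the running library. Erythrocyte markers summed to 22.5, 890 and 580 CPM in members (untreated, sedentary, running) and to 279, 735 and 1087 in cells with neither. In sedentary cells with Atf3 alone they reached 11341 CPM, of which 1160 of 1265 UMIs were in 1 barcode. Fibroblast markers came to 0, 0 and 3 UMIs and leukocyte markers to 1, 0 and 1 in untreated, sedentary and running members. The part of these barcodes in the class differences was not tested beyond leaving out cells with such UMIs, which left 107 genes passing between cells with both and with neither, 79 of them among the 137.

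Members of the running library were then set beside those of the other libraries, gene by gene, as values without a test. Of 2399 genes counted in 40 or more UMIs of running and sedentary members together, 177 were at least 1.5-fold higher in the running library (7.38%) and 173 at least 1.5-fold lower (7.21%). Running members held 397621 UMIs and sedentary members 157105. A gene could therefore pass this limit through the running library alone, as Ccl21a did with 44 UMIs against 0, so the limit favours genes high there. In cells with neither, which are more numerous, the numbers for the same 2399 genes were 70 (2.92%) and 49 (2.04%). These genes were chosen by their UMIs in members, and why the numbers differ between the classes was not tested. The median ratio of the early-response list was 0.09 between running and sedentary members and 0.37 between running and sedentary cells with neither. Jun stood at 4536, 4239 and 4379 CPM in all members of the untreated, sedentary and running libraries. Egr1 stood at 2171, 1808 and 2480 CPM, which made the running level 0.45 above the sedentary on the log2 scale (95% interval 0.26 to 0.65).

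Sik1, a salt-inducible kinase gene induced by cAMP, was the highest of the named genes against the sedentary library after Ccl21a. It was counted in 14, 3 and 45 UMIs in untreated, sedentary and running members, a log2 ratio of 2.36 to the sedentary library (0.93 to 4.90) and 1.20 to the untreated, while in cells with neither the ratio to the sedentary library was 0.36. With each member thinned to 1000 UMIs the ratio of 2.36 became 1.47. Rgs5 had 48, 22 and 167 UMIs and a ratio of 1.56 (0.94 to 2.30), with the concentration in single cells given above. Its ratio in cells with neither was 0.58. Camta1, Stk24, H2-Q6 and Adora2a had ratios between 1.26 and 1.71, each with 5 or 6 UMIs in the sedentary members. In cells with neither their ratios were 0.40, 0.91, 0.79 and 0.49, in that order, so these genes were also higher there in the running library. Against the untreated library the ratio of H2-Q6 was 2.05 in members and 2.43 in cells with neither. H2-Q6 belongs to a family of near-identical genes among which reads may be split. Ccl21a was counted in 1, 0 and 44 UMIs in untreated, sedentary and running members. In cells with neither it had 1, 10 and 59 UMIs, a running to sedentary ratio of 2.59.

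Among genes lower in running than in sedentary members, Bcl2l1, whose main product blocks apoptosis, had 41, 19 and 24 UMIs in untreated, sedentary and running members, a log2 ratio of -1.01 (-1.93 to -0.053). Its ratio was -0.99 in cells with neither, which lies inside the interval for members. Hpcal1 stood at -1.30 (-2.04 to -0.55) and Cd59a, a complement inhibitor gene, at -1.34 (-2.28 to -0.40), against -0.53 and -0.56 in cells with neither. Atf3 and Atf4 themselves, which chose the cells, had log2 ratios of 0.12 (-0.16 to 0.41) and -0.19 (-0.50 to 0.13) between running and sedentary members.

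**Figure D5:**
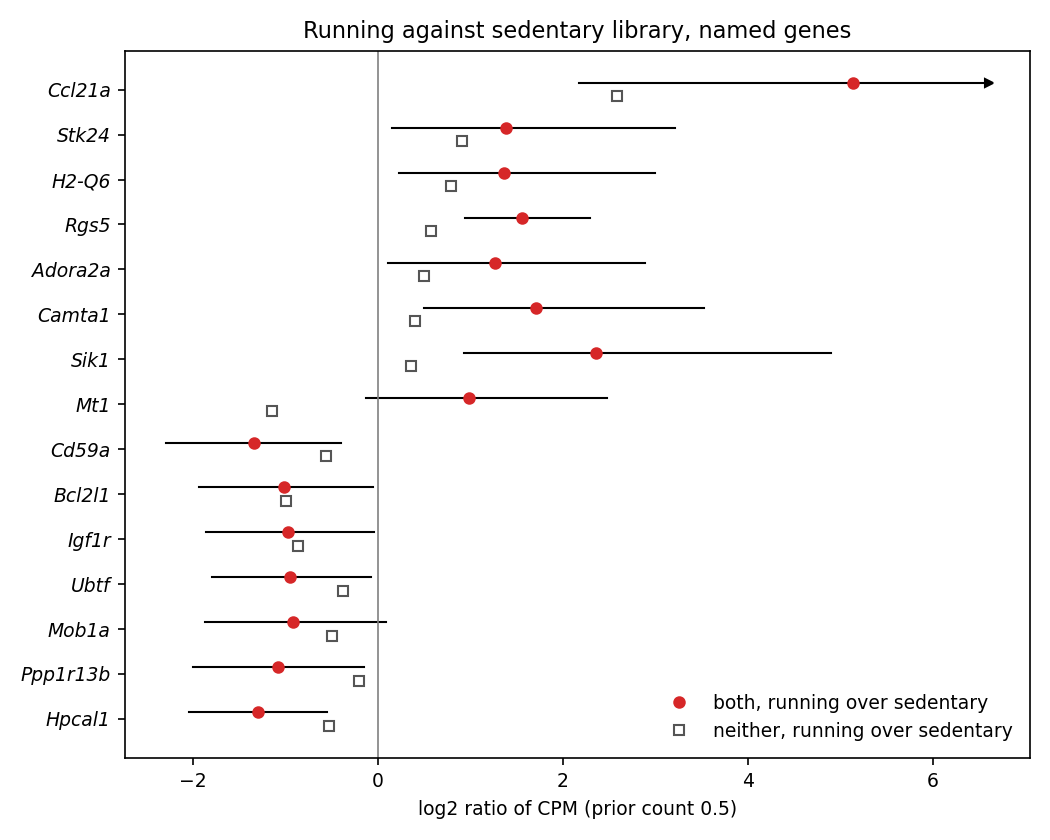
Log2 ratio of CPM between the running and the sedentary library for 15 named genes, in cells with both genes (circles, with exact 95% intervals for a ratio of counts) and in cells with neither (squares). The interval of Ccl21a has no upper bound because no UMI was counted in sedentary members; Bcl2l1 lies at nearly the same place in both classes.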

How the data were processed

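Raw UMI counts per gene and barcode were deposited as 1 matrix per library. The kit was 10x 3' version 2, per the labels' protocols, and counting used Cell Ranger 2.0.2 on GRCm38.p5, per the submitters' processing notes. The annotation release is not given in the sources used here. Positions come from GENCODE release M21.

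Members and gene lists were chosen with earlier results of these data known. Capillary cells were drawn to equal numbers per class, library and bin of 0.25 log2 UMIs (318 members), summed, and fitted with edgeR 4.0.16 (TMM, robust quasi-likelihood, library and class as terms, at least 30 UMIs over the 12 sums). The test was also run on simulated counts with a fixed spread and the same class effect in each library. Those settings are simpler than the data, so that run is no check of the calls above. Cells of a class share a library, so p-values do not measure variation between replicates of a group. They rest on counting error and on a variation over the 12 sums that is estimated in part from other genes. No doublet caller was run; an alternative left out the 5% of barcodes with most UMIs. Ratios between libraries used a prior count of 0.5. Intervals are 95% and exact.

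Named genes passed an adjusted p of 0.05 with at least 60 UMIs and the same sign in all 3 libraries (15 highest and 10 lowest; 8 and 5 against single classes), or had the largest changes of a list; between libraries, 8 each way with at least 40 UMIs. Mitochondrial, ribosomal and haemoglobin genes and numbered models were left out, and some genes are not reported here. Alternatives included DESeq2 1.42.0.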

Additional observations from a re-analysis of the deposited data

Results flagged for a closer look

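Transcripts of Atf3 and Atf4 were also found together in kept barcodes outside the capillary rule, which no comparison above uses. Both were counted in 316 of 2055 such barcodes in the untreated library (15.4%), 173 of 1354 in the sedentary (12.8%) and 271 of 1310 in the running library (20.7%). Within bins of depth the separate shares of the 2 genes gave 275, 142 and 249 barcodes with both. The counts of barcodes with both show only that the transcripts were detected together. The barcodes were deeper than the capillary cells, with medians of 1976, 1898 and 2174 UMIs.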

How the results depend on the processing

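Counts of genes past an adjusted p of 0.05 depended on how cells were drawn. For cells with both against neither the 137 genes became 360 without depth matching, 78 with DESeq2, 36 when members needed 2 UMIs of each gene, 19 without the library block, and 56 to 109 without 1 library; the DESeq2 genes were all among the 137, and a second draw shared 90 of its 122. Against Atf4 alone the 70 became 140 without depth matching, 26 after thinning to 1000 UMIs, 44 with DESeq2, 9 with 2 UMIs of each gene, 1 without the block, 43 without cells bearing other types' UMIs and 32 to 58 without 1 library. Against Atf3 alone the 0 became 1 without depth matching, 2 after thinning, 2 with a filter of 10 UMIs, 1 without the deepest 5% of barcodes, 1 without cells bearing other types' UMIs and 0 to 3 without 1 library. For the departure from the sum of the single classes the 1 became 6 without depth matching, 3 after thinning, 2 with a second draw, 2 without cells bearing other types' UMIs, 0 with DESeq2 and without the block, and 0 to 1 without 1 library. The 6 were Cyr61, Egr1, Fos, Ifi27l2a, Jund and Socs3, and the 3 were Fos, Junb and Jund. Alternatives with fewer cells test fewer genes; other causes were not tested. Of the 137 genes 12 passed in all 14 alternatives: Btg2, Cdkn1a, Egr1, Fosb, Gadd45g, Hes1, Junb, Jund, Klf4, Rnd1, Socs3 and Zfp36. Of the 24 named genes, 20 had no adjusted p in DESeq2 and 14 lost the call under a second draw. After thinning to 1000 UMIs, 98 genes passed between cells with both and with neither, 66 of them among the 137. Of the 24 named genes 17 then lost the call. Tob1, Fosl2 and Klf9 were among the genes that did not pass after thinning, with edgeR adjusted p of 0.51, 0.25 and 0.36. Thinning moved the members' shares to 3.68%, 4.87% and 8.25% and the running to sedentary difference to 3.38 points, and a minimum of 1500 UMIs to 12.8%, 11.7%, 23.3% and 11.6 points. Without bins the untreated odds ratio was 1.51. The classes were compared within libraries, with the library as the block; no pairing of libraries across groups was made, since the labels number no replicates. A single library per group and few UMIs per gene limit precision.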

Other observations

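Genes of the proteasome core, the protease that degrades ubiquitin-tagged proteins, were singled out after their values were seen. All 17 Psma and Psmb genes tested had a fold change below 0 between cells with both Atf3 and Atf4 and cells with neither, with a median of -0.72, and 7 passed an adjusted p of 0.05 in edgeR (Psma2, Psma5, Psmb1, Psmb2, Psmb3, Psmb6 and Psmb10). Psma2 and Psma5 lost the call with a second random draw (adjusted p of 0.11 and 0.38) and after thinning to 1000 UMIs (0.11 and 0.47). Without the running library their adjusted p was 0.23 and 0.69. Such values are not given here for the Psmb genes. Over all 7719 genes tested, 49.4% had a fold change below 0 and 0.687% passed as lower. All 17 were also below 0 between cells with Atf3 alone and cells with neither, a comparison that shares the cells with neither (median -0.69, 2 passing, with 49.4% of all genes below 0). Of 20 Psmc and Psmd genes, which encode the regulatory cap, 16 were below 0 and none passed. Against cells with Atf3 alone the median of the core genes in cells with both was -0.11, with 11 of 17 below 0. Against cells with Atf4 alone it was -0.42, with 16 of 17 below 0. Between cells with Atf4 alone and cells with neither, which are again the shared class, all 17 were below 0 (median -0.37). No core gene passed in these comparisons, where 3901, 3945 and 3902 of 7719 genes tested lay above 0, in the same order.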
